A study of Mus musculus with 12 samples.

Results

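The glycolytic enzymes of skeletal muscle, from hexokinase to pyruvate kinase and with the muscle fructose bisphosphatase, were followed in mouse soleus and tibialis anterior (TA). The list held 10 genes, and members were all probe sets that the probe table assigns to the symbol of a single listed gene. This gave 17 of the 45101 probe sets, which read 9 genes: Hk2, Pfkm, Aldoa, Tpi1, Pgk1, Pgam2, Eno3, Pkm and Fbp2. All 17 passed the filter on dim signal, so the 9 genes were among the 13009 tested. For Gpi1, the glucose-6-phosphate isomerase that follows hexokinase, no probe set carried the symbol, and it was not analysed here. No probe set was shared between a listed gene and another gene. Gapdh, the glyceraldehyde phosphate dehydrogenase, was not on this list and was not among the genes tested, so that step was not read either.

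The mice were 4 weeks old and weaned, and were either wild type (WT) or knockout (KO) for H6pd, whose product oxidises glucose 6-phosphate inside the endoplasmic reticulum and makes NADPH there. The labels name no strain and do not say which part of H6pd was removed or in which cells. Soleus and TA of each genotype gave 4 groups of 3 arrays, and per the design text myopathy was not evident in sections at this age. The labels call the arrays of a group biological replicates and do not say whether the soleus and the TA of equal number came from the same mouse. Values are log2 signals of 1-colour arrays after quantile normalization, so a difference of log2 values is a log2 fold change. Signals of different probe sets are not on a shared scale, and no gene's level is set against another's. The summed levels of marker lists add the signals of several probe sets and follow mainly the brightest of them. They are not amounts of a cell type.

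Glycolysis converts glucose to pyruvate in the cytosol and yields ATP without oxygen. In skeletal muscle it is run largely by muscle forms of the enzymes, and fast fibres, which contract hard and tire quickly, are known for higher activity of the pathway than slow oxidative fibres. Soleus in the mouse is a muscle with many slow and oxidative fibres, whereas TA is mostly fast. Hexokinase traps glucose in the cell, phosphofructokinase is the main control point, aldolase splits the hexose, and the later enzymes of the pathway make ATP and pyruvate. Fructose bisphosphatase catalyses the reverse of the phosphofructokinase step.

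Stretches of 250 bases upstream of RefSeq gene starts (build GRCm38.p6) are shown for 4 of the genes: Fbp2, which differed most between the muscles, Pgam2 and Eno3, which are muscle isoenzymes, and Hk2, which did not separate the muscles. They are written 5′ to 3′ on the strand of the gene. Capitals mark matches, on either strand, to the E-box (CANNTG, the core bound by myogenic factors) and to the core of the hypoxia response element (ACGTG), which overlap within CACGTG.
Fbp2, chr13:62858401-62858650, minus strand: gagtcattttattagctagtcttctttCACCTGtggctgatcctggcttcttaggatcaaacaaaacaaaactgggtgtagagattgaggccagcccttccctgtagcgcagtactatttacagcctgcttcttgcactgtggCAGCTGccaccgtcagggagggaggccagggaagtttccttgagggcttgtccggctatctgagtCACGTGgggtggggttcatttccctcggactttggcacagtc
Pgam2, chr11:5803797-5804046, minus strand: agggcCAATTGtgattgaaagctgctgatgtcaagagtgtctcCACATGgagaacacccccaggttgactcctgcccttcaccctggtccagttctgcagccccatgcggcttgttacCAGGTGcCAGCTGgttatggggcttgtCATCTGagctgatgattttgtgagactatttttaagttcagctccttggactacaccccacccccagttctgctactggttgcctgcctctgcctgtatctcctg
Eno3, chr11:70656926-70657175, plus strand: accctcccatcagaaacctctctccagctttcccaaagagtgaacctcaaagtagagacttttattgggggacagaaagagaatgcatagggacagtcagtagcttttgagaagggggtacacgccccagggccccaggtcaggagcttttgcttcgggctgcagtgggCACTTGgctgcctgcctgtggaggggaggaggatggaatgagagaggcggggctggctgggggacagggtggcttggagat
Hk2, chr6:82774455-82774704, minus strand: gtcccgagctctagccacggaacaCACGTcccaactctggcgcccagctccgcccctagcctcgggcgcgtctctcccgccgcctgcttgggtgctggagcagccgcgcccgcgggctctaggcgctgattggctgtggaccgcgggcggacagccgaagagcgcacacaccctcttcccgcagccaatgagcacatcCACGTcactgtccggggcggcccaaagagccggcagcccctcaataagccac
Pgam2 held 5 E-boxes, Fbp2 held 3 and Eno3 held 1. Hk2 held no E-box and 2 hypoxia cores, and Fbp2 held 1 E-box of the form CACGTG, which counts as a match to the hypoxia core on both strands.

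All 10 listed genes had at least 1 such window, 16 in all. An E-box was found in 13 of the 16 windows, against 66.2% of the 32851 windows in the promoter table. By gene, 9 of the 10 had an E-box in at least 1 window. The hypoxia core was found in 8 of the 16 windows, against 16.6% of all windows, and these 8 belong to 6 genes. Shares by gene were not computed over the promoter table, so the counts by gene have no background. In these 250 bases no window of these genes matched the MEF2 pattern searched, which was found in 3.2% of all windows. That pattern fixed the outer bases and left the middle bases free. MEF2 sites with other outer bases were not searched, so a lack of MEF2 sites in these genes is not shown. None of the windows of these genes matched the MEF3 motif (TCAGGTT, 3.49% of all windows). Pfkm has 4 windows, Aldoa 3 and Pkm 2, and the windows of Pfkm and of Aldoa overlap in part, so they are not independent.

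The muscle labels were checked against fibre markers. Each of 10 slow fibre markers was higher in WT soleus than in WT TA and passed the test, at a median log2 difference of 7.29, and the same 10 passed in KO at a median of 6.16. Their summed level (log2) was 18.44 to 18.61 in WT soleus and 12.11 to 13.04 in WT TA. Of 10 fast fibre markers 3 fell in WT soleus against TA, Myh4 (-4.45), Actn3 (-4.02) and Atp2a1 (-0.43), while Myh2, the myosin of oxidative fast fibres, rose by 2.94. The H6pd probe set itself read 6.96 ± 0.50 (SD, n = 3) in KO TA and 6.85 ± 0.93 in WT TA (limma, adjusted p = 0.966). In soleus it read 4.90 ± 1.04 in KO and 6.27 ± 0.78 in WT (adjusted p = 0.577), so it did not separate the genotypes, and the labels were used as given; whether the probe set lies in the removed part of the gene is not given in the labels.

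Between the muscles, 8 of the 9 measured glycolytic genes were lower in soleus than in TA, in WT and in KO mice alike. In WT the differences ran from 1.3-fold for Eno3 to 6.4-fold for Fbp2, with Pkm at 2.32-fold and Pgk1 at 1.85-fold, all lower in soleus. The exception was Hk2, the hexokinase of muscle and fat. In both genotypes 8 of 9 passed (limma on all 12 arrays, adjusted p below 0.05), against 6.26% of all genes lower in WT soleus and 4.61% lower in KO soleus. The median of the 9 was -0.76 in WT and -0.91 in KO, against -0.02 over all 13009 genes in each. For these 8 genes every TA array lay above every soleus array, over 6 arrays of each muscle, which held for 6.48% of all genes.

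**Figure D1:**
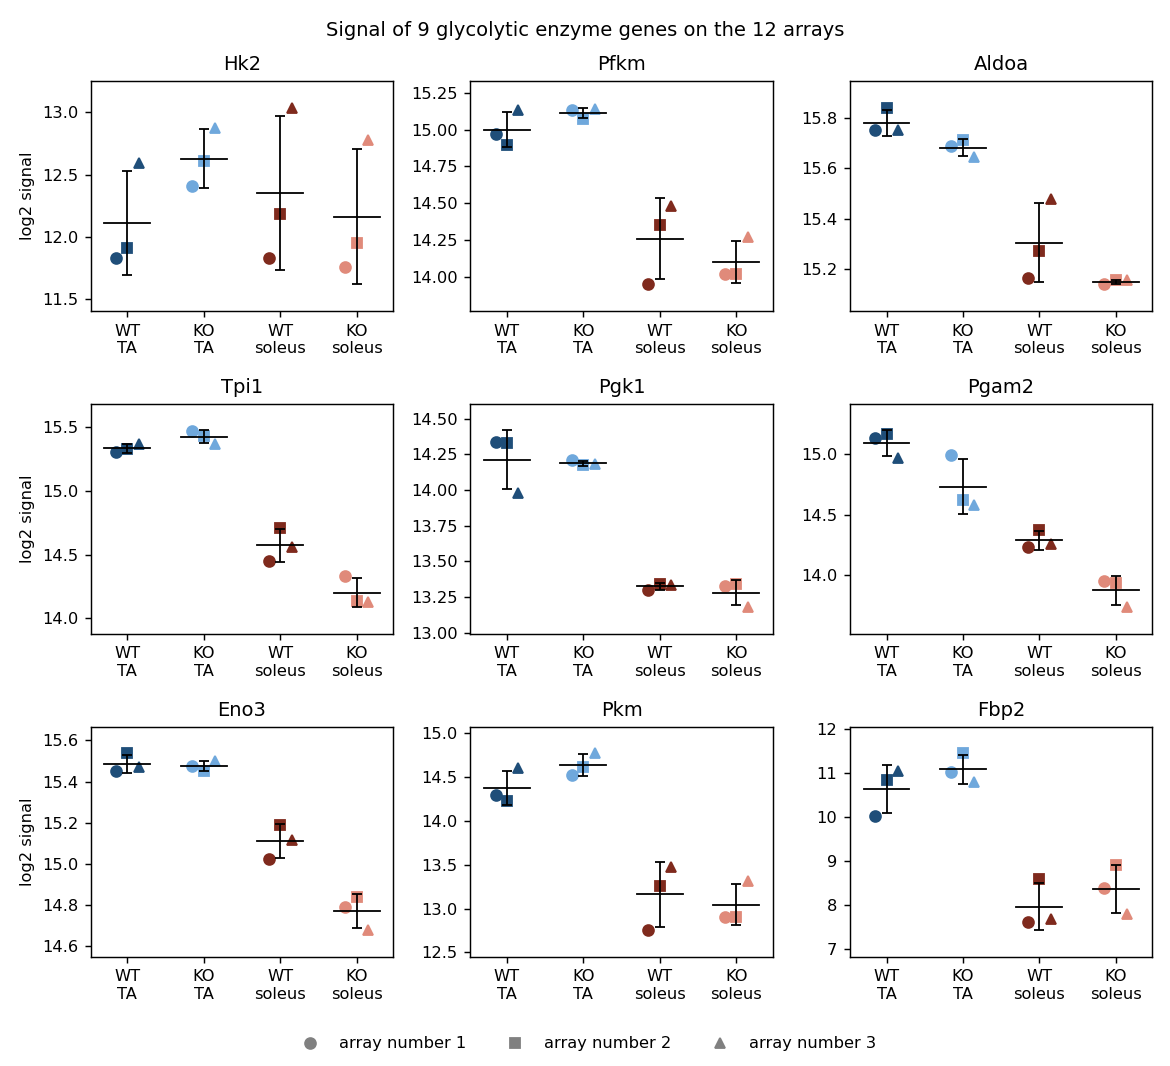
Log2 signal (vertical axis, scaled per gene) of the brightest probe set of 9 glycolytic genes in 4 groups of 3 arrays. Points are arrays, shaped by array number, and black lines are group means with SD. In all panels but that of Hk2 the TA arrays lie above the soleus arrays, and for Hk2, Pfkm and Pkm the array numbered 3 is the highest of each group.

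Hk2 catalyses the entry step. Its signal was 11.83, 11.91 and 12.60 in WT TA and 12.40, 12.61 and 12.88 in KO TA. In WT soleus it was 11.83, 12.19 and 13.04 and in KO soleus 11.76, 11.95 and 12.78. The 4 groups overlapped, and in each the array numbered 3 was the highest. Soleus minus TA was 0.24 in WT (SE 0.35, adjusted p = 0.7) and -0.47 in KO (SE 0.35, adjusted p = 0.471), with 95% intervals of -0.55 to 1.03 and -1.25 to 0.32. With the replicate number as a block the KO difference passed the test (adjusted p = 0.0482), and so it did without the arrays numbered 3 (-0.65, adjusted p = 0.0489). The WT difference turned to -0.10 without WT soleus replicate 3.

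Pfkm, the muscle phosphofructokinase, was 14.97, 14.90 and 15.13 in WT TA and 13.95, 14.35 and 14.48 in WT soleus. The KO values were 15.13, 15.07 and 15.14 in TA and 14.02, 14.02 and 14.27 in soleus. No soleus array reached any TA array. The gene was 1.67-fold lower in WT soleus (-0.74, SE 0.13, adjusted p = 0.00723) and 2.02-fold lower in KO soleus (-1.01, SE 0.13, adjusted p = 0.00169).

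Fbp2, which opposes this step in muscle, had the widest gap of the 9. It read 10.02, 10.84 and 11.04 in WT TA against 7.61, 8.58 and 7.68 in WT soleus. In KO it read 11.03, 11.45 and 10.79 in TA against 8.37, 8.89 and 7.80 in soleus. The soleus minus TA difference was -2.68 in WT (SE 0.37, adjusted p = 0.00195) and -2.74 in KO (SE 0.37, adjusted p = 0.00194), 6.4-fold and 6.66-fold. Its arrays spread widely within each group, yet the highest soleus array, 8.89, lay below the lowest TA array, 10.02.

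Aldoa, the muscle aldolase, was 15.75, 15.84 and 15.75 in WT TA and 15.16, 15.27 and 15.48 in WT soleus. In KO it was 15.69, 15.71 and 15.65 in TA and 15.14, 15.15 and 15.15 in soleus. It lay near the top of the table, whose highest deposited value was 16.36. Its difference was -0.48 in WT (SE 0.08, adjusted p = 0.006) and -0.54 in KO (SE 0.08, adjusted p = 0.00375), smaller in KO than those of the other 7 genes that passed.

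Tpi1, which interconverts the triose phosphates that aldolase releases, was 15.31, 15.33 and 15.37 in WT TA and 14.45, 14.71 and 14.56 in WT soleus. In KO TA it was 15.47, 15.44 and 15.37 and in KO soleus 14.33, 14.14 and 14.13, the lowest of the 4 groups. The difference was -0.76 in WT (SE 0.09, adjusted p = 0.000616) and -1.23 in KO (SE 0.09, adjusted p = 4.43e-05).

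Pgk1 makes the first ATP of the pathway. It was 14.34, 14.33 and 13.98 in WT TA, 14.21, 14.17 and 14.18 in KO TA, 13.30, 13.34 and 13.33 in WT soleus, and 13.33, 13.34 and 13.18 in KO soleus. The muscles differed by -0.89 in WT (SE 0.10, adjusted p = 0.000525) and -0.91 in KO (SE 0.10, adjusted p = 0.000522), almost the same size.

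Pgam2, the muscle phosphoglycerate mutase, was 15.14, 15.16 and 14.97 in WT TA and 14.99, 14.62 and 14.58 in KO TA. It was 14.23, 14.38 and 14.26 in WT soleus and 13.95, 13.94 and 13.74 in KO soleus. The soleus difference was -0.80 in WT (SE 0.12, adjusted p = 0.00262) and -0.85 in KO (SE 0.12, adjusted p = 0.00214). In soleus every KO array lay below every WT array, and in TA the ranges overlapped.

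Eno3, the muscle enolase, was 15.45, 15.54 and 15.47 in WT TA and 15.48, 15.45 and 15.50 in KO TA, nearly level. In WT soleus it was 15.02, 15.19 and 15.12 and in KO soleus 14.79, 14.84 and 14.68, without overlap. The muscle difference was -0.38 in WT (SE 0.07, adjusted p = 0.00917) and -0.71 in KO (SE 0.07, adjusted p = 0.000379).

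Pkm, the pyruvate kinase that ends the pathway, was 14.29, 14.23 and 14.59 in WT TA and 12.75, 13.25 and 13.47 in WT soleus. In KO it was 14.52, 14.61 and 14.77 in TA and 12.91, 12.91 and 13.31 in soleus. It had the widest gap after Fbp2, -1.21 in WT (SE 0.19, adjusted p = 0.00344) and -1.59 in KO (SE 0.19, adjusted p = 0.000955). The probe table does not say which splice form the probe set reads.

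**Figure D2:**
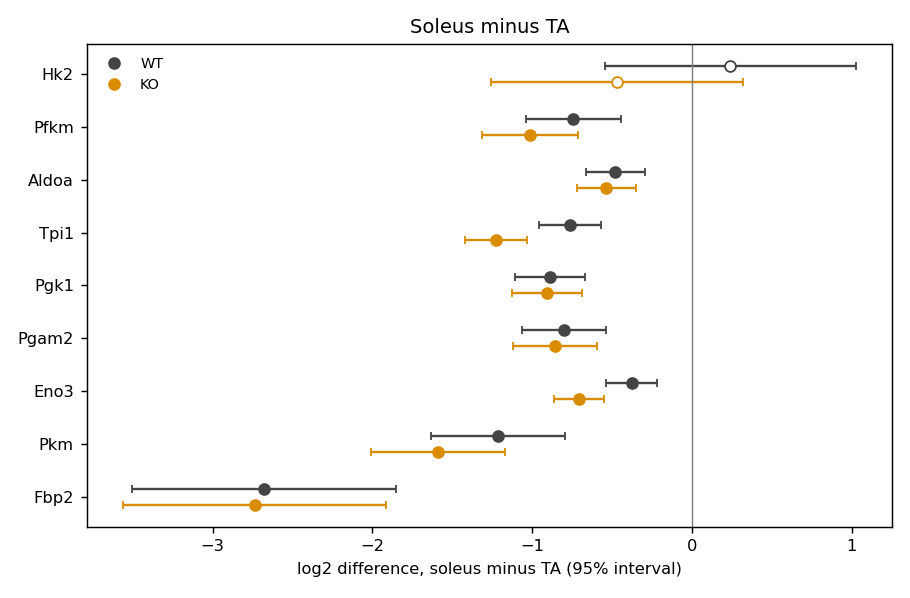
Log2 difference, soleus minus TA (horizontal axis), of 9 glycolytic genes in WT (grey) and KO (orange), with 95% intervals of the model; filled points passed the test. The 8 genes other than Hk2 lie below 0 in both genotypes, from -0.38 for Eno3 in WT to -2.74 for Fbp2 in KO.

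When WT soleus and WT TA were fitted alone, 5 of the 9 passed (Tpi1, Pgk1, Pgam2, Pkm and Fbp2), and Pfkm (adjusted p = 0.0573), Aldoa (0.0634) and Eno3 (0.0645) did not. In bulk muscle, fewer fibres that carry a transcript and less of it per fibre cannot be told apart. Markers of other cells also differed between the muscles. Of 3 lymphocyte markers 1 passed in WT, the immunoglobulin gene Ighm, which was lower in soleus (-4.89, SE 0.47, adjusted p = 0.000278), and the summed level was 6.80 to 7.47 in soleus and 10.63 to 11.09 in TA. In KO 0 of the 3 passed (0 at an unadjusted p below 0.05, limma). Of 5 tendon markers, 3 had the higher mean in WT soleus with 0 past the test. At an unadjusted p below 0.05 (limma) were 3 of the 5, and 3530 of all 13009 genes. In KO soleus 5 had the higher mean with 2 past the test, Comp (1.70, adjusted p = 0.0248) and Thbs4 (1.3, adjusted p = 0.0266). In WT soleus 4 of 4 measured adipocyte markers had the higher mean (1 passed, summed level 14.05 to 14.90 against 13.44 to 14.07 in TA), as did 5 of 6 endothelial markers (2 passed, 11.21 to 11.59 against 10.69 to 10.98). Both measured Schwann cell and nerve markers were higher as well (1 passed, 10.51 to 11.82 against 10.22 to 10.45). The part of these markers, and of fibre type, in the glycolytic differences was not tested.

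The 17 probe sets gave the same picture where a gene was read more than once. Fitted over all 27497 kept probe sets, 14 of 17 fell in WT soleus against TA and 16 of 17 in KO, where 4.02% and 2.79% of all probe sets were lower. The 16 probe sets other than that of Hk2 had no overlap between the muscles in either genotype, against 21% and 16.1% of all probe sets. The 5 probe sets of Aldoa ran from -0.36 to -0.84 in WT, and those at -0.37 (SE 0.10, adjusted p = 0.0555) and -0.36 (SE 0.11, adjusted p = 0.0787) did not pass. In KO the 5 ran from -0.54 to -1.02 and all passed. The 3 of Tpi1 ran from -0.76 to -0.97 in WT and from -1.12 to -1.26 in KO. Those of Pgk1 ran from -0.87 to -0.89 and from -0.82 to -1.10. The 2 dimmest Aldoa probe sets showed the widest gaps in both genotypes. All Aldoa probe sets carry the x_at suffix, which marks probes that can match other transcripts. So do the brightest and the dimmest probe set of Pgk1 and a probe set of Tpi1 that is not its brightest.

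**Figure D3:**
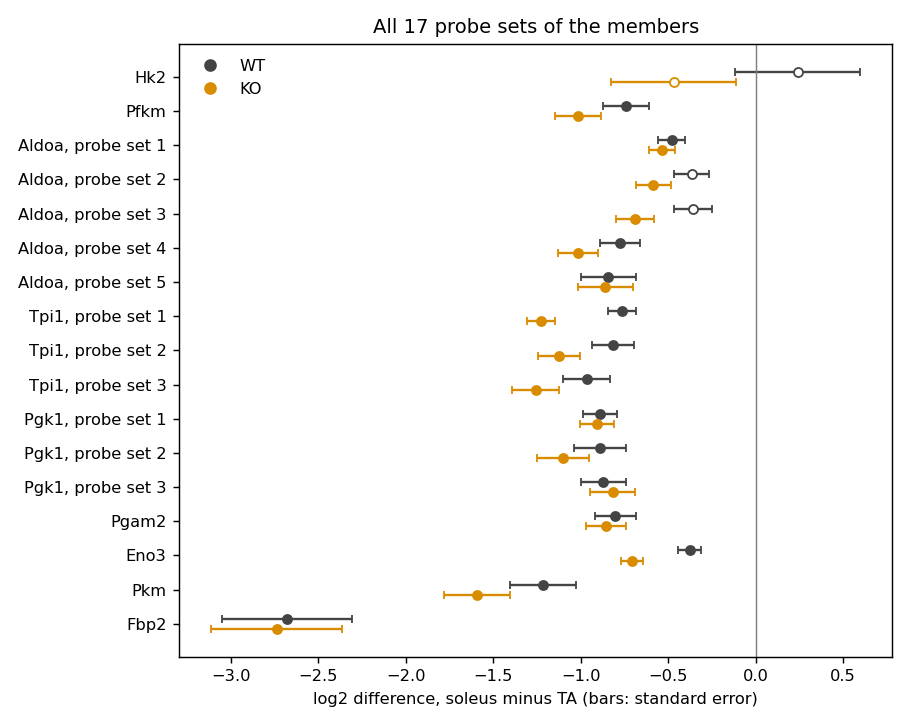
Log2 difference, soleus minus TA (horizontal axis), for each of the 17 probe sets in WT (grey) and KO (orange), with the model's standard error; filled points passed the test over all kept probe sets, and probe sets of a gene are ordered from bright to dim. Each probe set of Aldoa, Tpi1 and Pgk1 lies below 0, and 2 of Aldoa in WT are unfilled.

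Between KO and WT no measured glycolytic gene passed the test in either muscle. In soleus 8 of 9 had the lower mean in KO (48.9% of all genes had), at a median of -0.16 against 0.00229 over all genes, and 0 of 9 passed limma where 0.0307% of all genes did. At an unadjusted p below 0.05 (limma) were 1140 of all 13009 genes and 3 of the 9. The 3 were Pgam2 (-0.41, SE 0.12, adjusted p = 0.298), Tpi1 (-0.37, SE 0.09, adjusted p = 0.228) and Eno3 (-0.34, SE 0.07, adjusted p = 0.171). For these 3 and Aldoa (-0.16, SE 0.08, adjusted p = 0.682) the KO soleus arrays all lay below the WT soleus arrays, 4 of 9 genes against 6.08% of all genes. All 3 probe sets of Tpi1 had this order, at -0.37, -0.38 and -0.38, whereas of the 5 of Aldoa only the brightest had it (5.36% of all probe sets did).

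Weighting the arrays by their quality moved 3 genes in soleus past the test, Tpi1 (-0.46, adjusted p = 0.0217), Pgam2 (-0.44, adjusted p = 0.0415) and Eno3 (-0.37, adjusted p = 0.0211), while the number of all genes called rose from 4 to 360. Over the alternatives the adjusted p ranged from 0.0217 to 0.629 for Tpi1, from 0.0415 to 0.733 for Pgam2 and from 0.0211 to 0.599 for Eno3. Pfkm differed by -0.16 (95% interval -0.45 to 0.14), Pkm by -0.12 (-0.54 to 0.30), Pgk1 by -0.04 (-0.26 to 0.18) and Hk2 by -0.19 (-0.98 to 0.59). Fbp2 was the 1 gene with a higher mean, at 0.40 (-0.43 to 1.22). The intervals of Hk2 and Fbp2 span more than a 2-fold range, those of Pgk1 and Aldoa far less. Beside these values, 6 of 10 fast fibre markers and 6 of 6 endothelial markers had a lower mean in KO soleus, none past the test. At an unadjusted p below 0.05 (limma) were 2 fast fibre markers and 0 endothelial markers, and 1140 of all 13009 genes. The 2 were Atp2a1 (-0.48, SE 0.11, adjusted p = 0.224) and Myh1 (-0.28, SE 0.11, adjusted p = 0.489), both without overlap, while 4 fast fibre markers had the higher mean. The summed fast fibre level was 18.31 to 18.52 in KO and 18.49 to 18.62 in WT, and that of the endothelial markers 10.8 to 11.5 and 11.2 to 11.6. All 4 smooth muscle markers also had the lower mean, at a median of -0.21. Their part in the soleus values was not tested.

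In TA 5 of 9 genes had the higher mean in KO and 4 the lower, at a median of 0.09, and 0 of 9 passed where 2.83% of all genes did. At an unadjusted p below 0.05 (limma) were 2222 of all 13009 genes and 1 of the 9. The 1 was Pgam2, the phosphoglycerate mutase (-0.36, SE 0.12, adjusted p = 0.142). Its KO and WT TA arrays overlapped through KO TA replicate 1, and without that array the gene passed (-0.49, adjusted p = 0.0353). Aldoa, at -0.10 (SE 0.08, adjusted p = 0.601), was the 1 gene whose groups did not overlap, lower in KO, against 12.5% of all genes. Among the other 4 probe sets of Aldoa, 1 lay below without overlap and 1 above, so they do not share an order (11% and 9.93% of all probe sets). Hk2 differed by 0.52 (95% interval -0.27 to 1.3), Fbp2 by 0.46 (-0.37 to 1.28), Pkm by 0.26 (-0.16 to 0.68) and Pfkm by 0.11 (-0.18 to 0.41). Tpi1 (0.09, -0.10 to 0.28), Pgk1 (-0.03, -0.24 to 0.19) and Eno3 (-0.01, -0.17 to 0.15) had estimates close to 0.

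**Figure D4:**
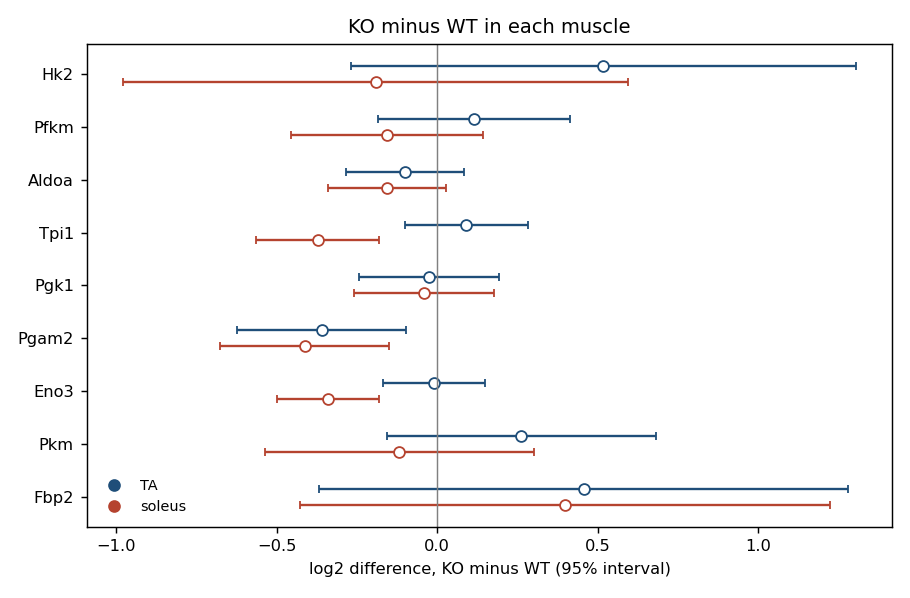
Log2 difference, KO minus WT (horizontal axis), of 9 glycolytic genes in TA (blue) and soleus (red), with 95% intervals; open points did not pass the test. No gene passed in either muscle, and the soleus intervals of Tpi1, Pgam2 and Eno3 and the TA interval of Pgam2, which are not adjusted for the number of genes, lie below 0.

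Markers of slow fibres were read in TA beside these genes. All 10 had the higher mean in KO (6322 of all 13009 genes had), at a median of 1.14 and with 0 past the test. They share the same arrays, so that their common sign is not 10 separate results. At an unadjusted p below 0.05 (limma) were 5 of the 10, and 2222 of all 13009 genes. The KO arrays lay above the WT arrays without overlap for 3 of the 10, and for 1393 of all genes. The summed level of the slow markers was 13.11 to 13.68 in KO and 12.11 to 13.04 in WT. Among the fast fibre markers Myh2 rose by 1.64 (SE 0.25, adjusted p = 0.011), the other 9 not passing, and the summed fast level was 18.81 to 18.96 in KO and 18.94 to 18.98 in WT. Ighm was 7.24 ± 0.87 (SD, n = 3) in KO TA and 10.75 ± 0.25 in WT TA (-3.51, SE 0.47, adjusted p = 0.00876), while the other lymphocyte markers, Cd3e and Ptprc, did not pass. Thbs4, a tendon marker, fell by 1.58 on the log2 scale (adjusted p = 0.0256). Of the 5 fibroblast, 4 myeloid and 2 erythroid markers tested, 0 passed limma between KO and WT in TA (1 at an unadjusted p below 0.05, erythroid). All 4 smooth muscle markers had the lower mean in KO TA, at a median of -0.29, with 0 past the test and 2 at an unadjusted p below 0.05. The mean was higher in KO TA for 4 of 4 adipocyte markers (summed level 13.96 to 14.31 against 13.44 to 14.07) and 5 of 6 endothelial markers (10.89 to 11.11 against 10.69 to 10.98), with 0 past the test and 0 at an unadjusted p below 0.05. Their part in the TA values was not tested.

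The difference of the KO effects, TA minus soleus, equals the change of the TA minus soleus gap from WT to KO mice. For the 8 genes higher in TA, a value above 0 is a widening of the gap. For Hk2 soleus minus TA turned from 0.24 in WT to -0.47 in KO. The difference of effects was above 0 in 9 of 9 genes, against 48.5% of all genes, with a median of 0.27 against -0.01. Over the 17 probe sets it was above 0 in 16 and below 0 in 1, of Pgk1 (-0.05, SE 0.18). None of the 9 genes passed the test (limma), where 0.0384% of all genes did. At an unadjusted p below 0.05 were 743 of all 13009 genes and 2 of the 9. The 2 were Tpi1 (0.46, SE 0.12, adjusted p = 0.518) and Eno3 (0.33, SE 0.10, adjusted p = 0.624). Hk2 (0.71, SE 0.50), Pkm (0.38, SE 0.27) and Pfkm (0.27, SE 0.19) had larger errors. For Aldoa, Pgam2, Fbp2 and Pgk1 the value was 0.06 or less, and its sign turned when single arrays were left out. The 9 genes share the same 12 arrays, so that their common sign is not 9 separate results.

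Other genes of the pathway, from lists chosen apart from the 10, were read on the same arrays. Of 20 other glycolytic isoenzymes 9 were tested. In WT soleus against TA 1 fell, Bpgm, which makes 2,3-bisphosphoglycerate (-1.36, SE 0.25, adjusted p = 0.00749), and 1 rose, Pfkp, a phosphofructokinase form of non-muscle tissue (1.32, SE 0.34, adjusted p = 0.035). In KO only Bpgm passed (-1.39, SE 0.25, adjusted p = 0.00794). Their median was 0.02 in WT. Of the 9, Hk3, Aldoc, Pgk2 and Adpgk read near the filter level of 2.76, with group means of 2.77 to 3.48 in the muscles of both genotypes. Between KO and WT 0 of 9 passed in either muscle, the smallest p belonging to Hk1 (0.38, adjusted p = 0.257) and Bpgm (-0.44, adjusted p = 0.417) in TA and to Adpgk (0.34, adjusted p = 0.467) and Bpgm (-0.46, adjusted p = 0.69) in soleus.

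Of 24 regulators of glycolysis, glucose carriers and enzymes of the glycerol phosphate shuttle, 21 were tested, and 5 fell in WT soleus against TA. They were the shuttle enzymes Gpd1 (-3.37, SE 0.36, adjusted p = 0.000407) and Gpd2 (-2.79, SE 0.22, adjusted p = 7.95e-05), which pass electrons from cytosolic NADH to mitochondria, and Pfkfb3 (-2.56, SE 0.47, adjusted p = 0.00792) and Pfkfb4 (-1.84, SE 0.24, adjusted p = 0.00141). The last pair set the level of fructose 2,6-bisphosphate, the activator of phosphofructokinase. Mef2a, a muscle transcription factor, fell by 0.39 on the log2 scale (adjusted p = 0.0377). In KO 6 fell: Gpd1 (-3.62), Gpd2 (-2.75), Pfkfb4 (-1.53), Tigar (-1.80), a fructose bisphosphatase, Pgp (-0.97), a phosphoglycolate phosphatase, and Myod1 (-2.99), a myogenic factor. Six4, a homeobox factor, was the 1 that rose, by 0.71 (adjusted p = 0.0379).

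Between KO and WT 0 of these 21 passed limma in TA or soleus, with 3 at an unadjusted p below 0.05 in each. Of all 13009 genes 2222 had such a p in TA and 1140 in soleus. In TA the smallest p of the 21 were those of Tigar, 10.01 ± 0.19 (SD, n = 3) in KO and 9.0 ± 0.24 in WT (1.0, SE 0.30, adjusted p = 0.107), and Mef2d (-0.53, SE 0.20, adjusted p = 0.209). In soleus they were those of Pgp, 9.13 ± 0.33 in KO and 9.95 ± 0.15 in WT (-0.82, SE 0.17, adjusted p = 0.171), and Mef2c (-0.34, SE 0.14, adjusted p = 0.495). For the difference of the effects 0 passed in either list, and the smallest p were those of Tigar (1.01, adjusted p = 0.837) and Pgp (0.51, adjusted p = 0.863).

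Within the groups the 9 genes did not move as 1 unit. Over the 12 arrays the 36 pairs of genes had a median Pearson correlation of 0.90, from -0.08 (Hk2 with Pgam2) to 0.99 (Pfkm with Pkm), as a description of arrays that fall into separate muscles. After group means were removed the median was 0.15, with 24 of 36 pairs above 0. Pfkm with Pkm kept 0.96 and Hk2 with Pkm 0.93, whereas Hk2 with Pgk1 had -0.60. These arrays share RNA and scaling, and no test was made.

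Hk2, Pfkm and Pkm, the enzymes of the irreversible steps, were highest on the array numbered 3 in all 4 groups, 3 of 9 genes against 15.6% of all genes. Array number 3 exceeded the mean of arrays 1 and 2 by 0.93 for Hk2 in KO soleus, by 1.03 in WT soleus, by 0.37 in KO TA and by 0.73 in WT TA. For Pkm it exceeded it by 0.20 to 0.47 and for Pfkm by 0.04 to 0.33. Pgam2 lay below by 0.04 to 0.23 in the 4 groups. The labels do not say what the number stands for, and its part in the genotype values was not tested beyond the fits with and without these arrays.

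**Figure D5:**
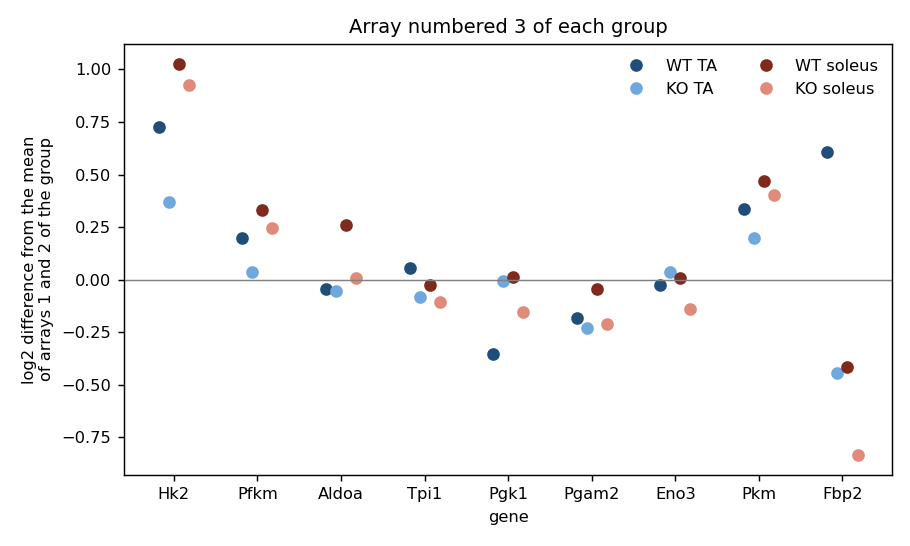
Log2 signal of the array numbered 3 of each group minus the mean of arrays 1 and 2 of that group (vertical axis), for 9 genes, coloured by group. Hk2, Pfkm and Pkm lie above 0 in all 4 groups and Pgam2 below 0, while Fbp2 runs from -0.84 in KO soleus to 0.61 in WT TA.

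Outside the list, 6 genes followed the mean profile of the 9 members (each centred and scaled) most closely over the 12 arrays. They were Gtf3a (r = 0.99), Mylk4 (0.98), Ldha (0.98), Arl3 (0.98), Cacng1 (0.98) and Syngr2 (0.98). The members themselves had 0.89 to 0.99, except Hk2 at 0.30. Each member is part of that mean, which raises its r, so these values are not on a par with those of outside genes. Ldha, the muscle lactate dehydrogenase subunit, averaged 15.08 in WT TA, 15.01 in KO TA, 14.02 in WT soleus and 13.81 in KO soleus. The 6 genes most opposed to it were Pdk1 (-0.98), Spsb4 (-0.98), Nlrc3 (-0.98), Tecrl (-0.98), Ppp1r12a (-0.98) and Med17 (-0.98). Pdk1, a kinase that inactivates pyruvate dehydrogenase, averaged 9.02 in WT TA, 9.13 in KO TA, 10.67 in WT soleus and 10.92 in KO soleus. These correlations rest mostly on the separation of the muscles and describe the arrays only.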

How the data were processed

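Total RNA of 12 muscle samples was hybridised as biotin-labelled cRNA, 1 array per sample, per the labels' protocols. The deposited table holds the authors' log2 signal of 45101 probe sets per array, from 0.89 to 16.36. The submitters' processing notes name MAS5 without version or role, and how probes were summarised is not given in the sources used. Groups came from the sample titles, and 0 columns were unmapped.

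Quantile normalization came first. A probe set was kept (27497 were) if its signal exceeded log2 2.76, the percentile 40 of each array, on 3 or more arrays. For each gene the brightest single-symbol probe set was tested (13009 genes), with R 4.3.3 and limma 3.58.1, lmFit on 4 group means and eBayes (trend). All 2-sided p-values were adjusted by Benjamini-Hochberg across the 13009 genes, with a threshold of 0.05. All probe sets of the members were also fitted among all kept probe sets. An exact permutation test of 3 against 3 arrays cannot go below p = 0.1. The p-values measure the spread between these arrays, of which the labels say only that they are biological replicates.

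The members and lists were chosen with earlier results of these data known. Named genes were all members, per list and comparison up to 6 past the test or else the 2 of smallest p, and the 6 most and least like the members' mean. Lists also held markers of 11 cell and fibre types.

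Equal replicate numbers deviated together (r of deviations from group means 0.16 to 0.56 between KO and WT TA, 0.14 to 0.59 between WT muscles, 0.43 to 0.59 between KO muscles). Between KO and WT soleus number 2 reached only 0.09. The labels do not state such a pairing. Alternatives covered scaling, filter, pseudocount, probe choice, variance model, array weights, the arrays fitted, a replicate block and single arrays left out. Planned protein comparisons were not run.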

Additional observations from a re-analysis of the deposited data

How the results depend on the processing

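The muscle differences of the 8 genes kept their sign under every alternative run, and their call under all but 1 alternative: fitted on WT soleus and WT TA alone, 5 of 9 passed in place of 8. In KO the count was 8 or 9 throughout. KO against WT counts stayed at 0 in TA and soleus, except 3 in soleus with array weights, and 1 in TA when KO TA replicate 1 was left out (0 to 1 over single arrays). The replicate block gave 0 in TA, 0 in soleus, 8 in the WT muscles and 9 in the KO muscles, where it added Hk2, and changed no other call on the members. Counts over all genes moved more. In soleus 4 became 360 with array weights, 0 in a limma fit of the soleus arrays alone (930 at an unadjusted p below 0.05), 3 to 30 over single arrays left out and 1 to 5 under the others. In TA 368 became 913 with the block, 56 without the arrays numbered 3, 4 in a fit of the TA arrays alone and 85 to 398 over single arrays. Between WT muscles 1392 became 2369 with the block, 2800 with array weights, 706 alone and 699 to 1281 over single arrays. For the difference of effects 5 became 10 with array weights and 1 to 20 over single arrays. Between KO muscles 1165 became 2194 with the block, 631 alone and 585 to 1072 over single arrays.

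Sign changes, all of differences that did not pass, were as follows; the cause was not tested. For KO minus WT in TA, Tpi1 was -0.021 as the mean of its probe sets and Pgk1 0.030 with median centring, and over single arrays left out Pgk1 ran from -0.14 to 0.036 and Eno3 from -0.028 to 0.014. For KO minus WT in soleus, Pgk1 was 0.012 without the arrays numbered 3, and over single arrays Pgk1 ran from -0.072 to 0.00888, Hk2 from -0.50 to 0.15 and Pkm from -0.32 to 0.039. For the difference of effects, Aldoa was -0.025 and Pgk1 -0.15 without the arrays numbered 3, and Pgk1 -0.050 with array weights. Over single arrays Aldoa ran from -0.030 to 0.13, Pgk1 from -0.10 to 0.078, Pgam2 from -0.077 to 0.13 and Fbp2 from -0.25 to 0.33. Hk2 in WT soleus against TA ran from -0.10 to 0.50. The 3 arrays per group limit the precision of every value.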
